A study of Drosophila melanogaster and Drosophila simulans and Drosophila yakuba with 30 samples.

Results

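The genomic binding landscape of the Sox factor Dichaete in Drosophila melanogaster embryos was described from every binding interval at which Dichaete-Dam libraries were enriched over Dam-only libraries at an adjusted p-value of 0.05. All 20848 intervals of that list were kept, out of 118266 intervals in the 7 lists in D. melanogaster coordinates (UCSC build dm3) used here, and a second list of 17530 intervals called at 0.01 served to mark those that hold at the stricter threshold. Both groups were whole embryos of 0 to 16 h from flies of strain w[1118], with 3 replicates each, 6 of the 30 libraries of the study. One group carried the transgene pBac3xP3-EGFP-Dichaete-Dam and the other pBac3xP3-EGFP-Dam, inserted with piggyBac. According to the study's methods both transgenes stand behind UAS sites and an Hsp70 promoter, the fusion with the kayak 5′ UTR and Dam alone with the SV40 5′ UTR, and the sources used here name no driver, so the cells in which the fusion was expressed are not given. Whole embryos mix all cell types, and the interval lists hold no expression values, so the tissue could not be checked against markers.

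Dichaete is a group B Sox protein, a transcription factor that binds and bends DNA through its HMG box. In the fly embryo it is known for roles in segmentation, in the neuroectoderm and central nervous system, in the midline and in the hindgut, and in parts of the nervous system it is expressed together with its relative SoxNeuro (SoxN). In DamID a protein is fused to the E. coli methylase Dam, which methylates the adenine of GATC sites near the places the protein visits. The genome is then cut at methylated sites, so the unit of measurement is the stretch between neighbouring GATC sites, called a GATC fragment here, and untethered Dam serves as the control for accessible chromatin.

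Each interval is given by its position and by how many GATC fragments it merges. The 3 replicates of each group entered the list together, so no value has a spread between replicates, the depth behind an interval is unknown, and no test between samples could be made. Intervals given with shares are exact 95% binomial (Clopper-Pearson) intervals, those of medians rest on order statistics, and both cover counting error only, since neighbouring intervals of the genome are not independent. No gene is named, because the annotation at hand belongs to another build.

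Most Dichaete intervals were short. Their median width was 671 bp (660 to 683) and the interquartile range 343 to 1313 bp. A single GATC fragment made up 5677 intervals, 27.2% of the list (26.6 to 27.8%), while 3817 intervals merged 2 fragments and 2776 merged 3. The narrowest intervals spanned 4 bp, the length of a GATC site, which was the case for 7 of them, and 888 were under 100 bp. At the broad end, 328 intervals merged more than 20 fragments, 1.57% of the list, and together they held 9.31% of the base pairs in intervals, against 7.71% held by all intervals of 1 fragment.

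Width rose with fragment number in every class, from a median of 266 bp for 1 fragment through 995 bp for 4 to 5 fragments to 5858 bp for more than 20. Classed by fragment number, the stretch of interval per fragment became shorter at the same time. It was 298 bp in intervals of 1 fragment, 245 bp in those of 4 to 5 and 219 bp in those above 20. Intervals of at least 4000 bp numbered 636, and they held 16.7% of all base pairs in intervals. Chosen by width in this way, they had 273 bp per fragment against 244 bp in the whole list.

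**Figure D1:**
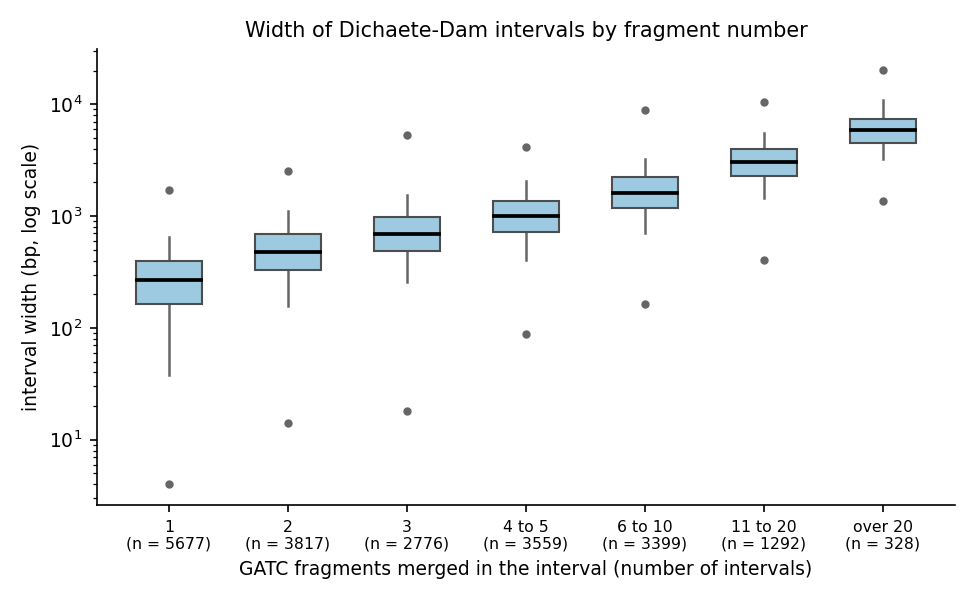
Width of the Dichaete-Dam intervals called at 0.05 (y axis, bp, log scale) by the number of GATC fragments merged (x axis, with the number of intervals in each class). Boxes span the 25th to the 75th percentile, black lines mark the median, grey lines run from the 5th to the 95th percentile and dots mark the narrowest and widest interval; the median climbs from 266 bp at 1 fragment to 5858 bp above 20 fragments.

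The broadest interval of the landscape lay at the distal tip of 3L (chr3L:16-20265), where 130 fragments were merged over 20250 bp, with 156 bp per fragment. It kept 129 fragments and 97.1% of its base pairs at 0.01. SoxN-Dam intervals of D. melanogaster, called against the same Dam-only libraries, covered 100% of it. The widest interval of the SoxN-Dam list was likewise of 20250 bp, and the most fragments merged there were 130. D. simulans Dichaete-Dam intervals covered none of it and D. yakuba intervals 8.91%. The assembled sequence of 2L also opened with an interval within its first 100 bp (chr2L:82-5302, 35 fragments), and those of 2R and 3R opened with short intervals of 813 and 396 bp. On X and 4 the first interval began only at bases 19616 and 24149.

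Next in width came chr2R:9446967-9463408 (16442 bp, 77 fragments), and this interval was also occupied in every other species. D. yakuba intervals covered 97.0% of it, D. simulans intervals 60.9% and D. pseudoobscura intervals 52.3%. The interval chr3R:911764-925965 (14202 bp, 36 fragments) stood out among the 10 broadest because its span was the same at 0.01. Of the other 9, the interval at the tip of 3L was trimmed and 8 split into 2 or 3 pieces. A pair of neighbours on 3L, chr3L:14935750-14947416 (11667 bp) and chr3L:14948803-14962827 (14025 bp), were separated by 1386 bp and both belonged to the 10. The second of them was covered to 98.1% in D. yakuba and 49.7% in D. pseudoobscura.

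Neighbouring intervals lay close together. The median gap between an interval and the next on its chromosome was 2257 bp (2211 to 2305), while the mean gap was 4718 bp and the standard deviation of gaps was 1.67 times their mean. Of the 20842 gaps, 15.6% were of 500 to 1000 bp, 5.11% of 250 to 500 bp and 2.70% of up to 250 bp. The shortest was 101 bp, since intervals within 100 bp had been merged. Gaps of at least 25000 bp were 2.67% of all gaps, yet they held 23.2% of the unbound base pairs between intervals. The distribution therefore had a long tail, with the largest gap at 152439 bp.

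**Figure D2:**
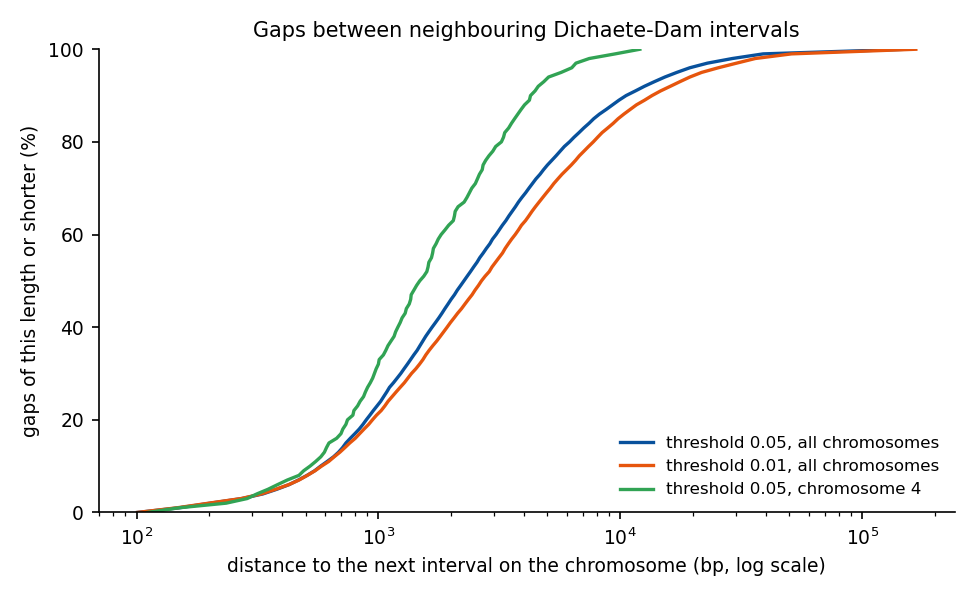
Cumulative distribution of the gaps between neighbouring Dichaete-Dam intervals: the x axis gives the gap length (bp, log scale) and the y axis the percentage of gaps of that length or shorter. Lines show all chromosomes at 0.05 (median 2257 bp), all chromosomes at 0.01 (median 2667 bp) and chromosome 4 at 0.05 (median 1482 bp, longest 12042 bp).

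A neighbour within 1000 bp was found for 8385 intervals, 40.2% of the list (39.6 to 40.9%). When intervals separated by up to 1000 bp were joined, 15978 chains resulted. Of these, 12463 were lone intervals and 3515 had 2 or more members, with a median span of 2673 bp, while only 83 chains had 5 or more members. The chain with most members, 9 intervals, lay at chr3R:15152682-15173331, where intervals took up 83.4% of 20650 bp. The longest chain (chr3R:25092332-25123841) joined 7 intervals and 145 fragments over 31510 bp, of which intervals covered 89.0%.

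Dichaete intervals were spread over the 5 large arms at similar densities, and chromosome 4 stood apart from them. Chromosome 4, the small dot chromosome, is known for its largely heterochromatic character with active genes embedded in it. It held 286 intervals per Mb, 366 in all, against 166 to 180 per Mb on 2L, 2R, 3L, 3R and X. Relative to the sum of those arms the density was 1.66 times as high (1.49 to 1.84), and intervals covered 39.0% of chromosome 4 but 18.0% of the others. The median width was 907 bp on chromosome 4 and 652 to 685 bp on the large arms. Intervals of 1 fragment were rarer there, 20.5% against 27.4%, and the median gap was shorter, 1482 bp against 2277 bp. No gap on chromosome 4 reached 25000 bp, whereas 556 gaps elsewhere did.

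The same ratio of densities, chromosome 4 over the other arms, was taken in the other lists. It was 1.62 (1.47 to 1.79) for SoxN-Dam in D. melanogaster, whose list was called against the same Dam-only libraries. For Dichaete-Dam from other species, each with its own libraries and with reads translated to D. melanogaster positions, it was 1.38 (1.23 to 1.54) in D. yakuba, 0.891 (0.755 to 1.04) in D. simulans and 1.02 (0.640 to 1.55) in D. pseudoobscura. D. pseudoobscura had 22 intervals on chromosome 4 and D. simulans 153. Measured by the covered share in place of the number of intervals, the ratio was 2.16 for Dichaete-Dam in D. melanogaster, 1.97 for SoxN-Dam, 1.93 in D. yakuba, 0.902 in D. simulans and 1.59 in D. pseudoobscura. An absent interval and a sequence that could not be translated cannot be told apart in these lists.

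Along the arms, base pairs in intervals were counted in 10 equal parts of each. Among the 50 parts of the large arms the covered share ran from 11.3% (the eighth part of 2L) to 22.6% (the seventh part of 3L). On chromosome 4 coverage was above 33% in every part and was 45.2% in the first and 33.4% in the last. The ninth part of 3R was the sparsest by number, with 114 intervals per Mb.

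The centromere-proximal ends of 4 arms, which grade into pericentric heterochromatin, held Dichaete intervals that were overlapped in D. simulans and D. yakuba less often than the median part. The last part of 2L had 218 intervals per Mb, the highest value of any part of a large arm, the first part of 2R 188, the last part of 3L 181 and the last part of X 153. In D. simulans 24.6% of intervals in the last part of 2L were overlapped, 23.6% in the first part of 2R, 13.7% in the last part of 3L and 27.9% in the last part of X. The median over the 50 parts was 50.0%. In D. yakuba the shares in these 4 parts were 29.4 to 44.9% against a median of 66.3%. The D. simulans list was itself sparser there, with 117 to 196 intervals in a part against a median of 331. The D. yakuba list had 250 to 406 intervals in these parts against a median of 407, and 406 in the last part of 2L, where the share was 44.9%. In the same parts 26.6 to 32.1% of intervals were absent at 0.01, against a median of 23.0%. Some parts elsewhere reached this range, such as the fifth part of X (28.2%) and the eighth part of 2L (26.8%). The last part of 3L had the largest share of intervals of 1 fragment, 35.7%. On 3R the first part, its centromere-proximal end in this assembly, lay closer to the medians. There 45.3% of intervals were overlapped in D. simulans (41.2 to 49.5%) and 61.3% in D. yakuba, both below the median. At 0.01, 20.4% of its intervals were absent. Whether reads in these centromere-proximal parts could be translated between species was not tested.

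**Figure D3:**
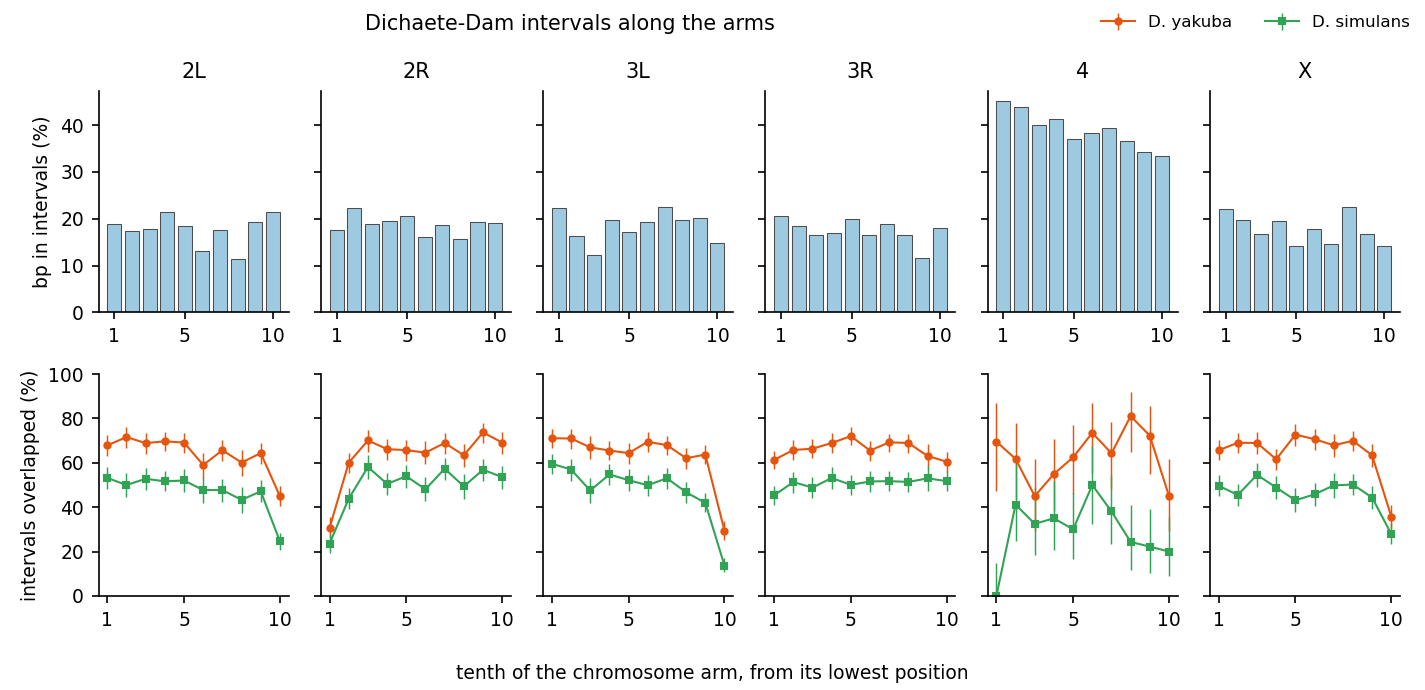
Dichaete-Dam intervals in 10 equal parts of each chromosome arm, numbered from the lowest position (x axis). The upper row shows the base pairs in intervals (%, bars) and the lower row the share of intervals overlapped by a translated D. yakuba or D. simulans interval (%, with exact 95% binomial intervals), which falls at the last part of 2L, 3L and X and the first part of 2R.

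In windows of 100 kb, Dichaete intervals were unevenly spread on the large arms. The 1201 full windows held a mean of 17.3 intervals (SD 7.18 over windows), with a range of 0 to 38. The variance was 2.98 times the mean, where a Poisson count has a ratio of 1. By arm the ratio was 2.37 to 3.30 on the large arms and 0.877 over the 12 windows of chromosome 4, where intervals were dense. With so few windows the ratio of chromosome 4 is uncertain, and no interval was computed for it. Counts of adjacent windows had a correlation of 0.26 (1195 pairs, given as a description), and those of windows 2 apart 0.07, so likeness between windows was mostly limited to direct neighbours. The 121 windows with most intervals held 17.0% of all intervals (16.5 to 17.5%). These windows were chosen by that same count, so the share lies above 10% by construction. Its interval does not cover this choice.

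Base pairs in intervals picked out other windows than the number of intervals did. The most covered window was chr2L:21800001-21900000, in which 26 intervals filled 59.4% of the sequence and the longest was 10577 bp. Next came chr3L:700001-800000, where 27 intervals filled 54.6%, and chr3L:18200001-18300000, with 51.9% from 26 intervals. Chromosome 4 came next with chr4:200001-300000 (48.3%), and 11 of its 12 windows were among the 121 most covered. The remaining 6 of the first 10 were on 3L (2 windows), 3R (3 windows) and at the very start of 2L, with 45.7 to 47.8% covered. On 2R and X the most covered windows were chr2R:2000001-2100000 (43.7%) and chrX:6500001-6600000 (43.4%).

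Some of these windows were full because of a few broad intervals and others because of many. The window chr3L:14900001-15000000 reached 47.8% with only 10 intervals, none of which was of 1 fragment or vanished at 0.01, and its longest was 14025 bp. By contrast, the window with most intervals, chr3L:20300001-20400000, held 38 intervals of median width 716 bp and was covered to 36.7%. The window chr2R:2200001-2300000 had 34 intervals, 14 of them of 1 fragment, while D. simulans had 2 intervals in it and D. yakuba 5.

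On the large arms, windows rich in Dichaete-Dam base pairs in D. melanogaster tended to be rich in the other species. Over the 1201 windows the covered share correlated with that of D. yakuba at r = 0.79, of D. simulans at r = 0.73 and of D. pseudoobscura at r = 0.45. Within each large arm r was 0.73 to 0.84 for D. yakuba, 0.73 to 0.77 for D. simulans and 0.30 to 0.55 for D. pseudoobscura. Over the 12 windows of chromosome 4 it was -0.46, 0.34 and -0.23, negative for D. yakuba and D. pseudoobscura. These are descriptions over windows that share the positions and GATC sites of the D. melanogaster genome, not independent points. In the 121 most covered windows the median covered share was 36.9% in D. melanogaster, 44.9% in D. yakuba, 18.9% in D. simulans and 1.46% in D. pseudoobscura. Over all windows the medians were 17.2%, 25.5%, 10.3% and 0.51%. The most covered window, on 2L, had 13.6% in D. simulans, above the median of all windows but below that of the 121 most covered.

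Some stretches held few intervals or none. The window chr2R:14900001-15000000 was the only one with no interval, and it lay in the longest gap, chr2R:14859947-15012385. In 19 windows there were 2 intervals or fewer. The next longest gaps were 129793 bp and 119434 bp on X, 115954 bp on 2L and 108773 bp on 3L, and the last of these ended at one of the 10 broadest intervals, chr3L:14935750-14947416. In all, 556 gaps were at least 25000 bp long and they took up 19.0% of the arms. They were sparse in the other species too. D. yakuba intervals covered 5.68% of these gaps against 25.7% of the arms, D. simulans 1.34% against 11.04% and D. pseudoobscura 0.24% against 0.99%. The arms include the D. melanogaster intervals, which gaps exclude by definition, so part of this contrast follows from how the gaps were chosen. Coverage of shorter gaps in the other species was not computed. Of the 556 gaps, 236 held no D. simulans interval and 84 no D. yakuba interval.

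At the stricter threshold 16011 intervals, 76.8% of the list (76.2 to 77.4%), still held an interval. Every one of the 17530 intervals at 0.01 lay inside an interval at 0.05, so each could be followed. The same start and end were found for 7944 intervals, 6733 became shorter with 1 piece left, 1334 split and 4837 vanished. The pieces of split intervals numbered 2853, which is why the list lost 15.9% of its intervals while 23.2% vanished. Base pairs fell by 4.89 Mb or 22.3%, of which trimmed intervals gave 45.8%, vanished intervals 32.1% and split intervals 22.0%.

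Intervals that vanished were the small ones. Their median width was 272 bp and 3440 of the 4837 were of 1 fragment. Of intervals of 1 fragment, 60.6% vanished, of those of 2 fragments 25.8%, of 3 fragments 10.4% and of 4 to 5 fragments 3.06%. Only 15 intervals of 6 to 10 fragments did, 0.44% of that class, and none of the 1620 intervals with more. The 5 longest that vanished were 1538 to 2045 bp, each of 1 or 2 fragments, headed by chrX:67627-69671. Within intervals of 1 fragment the share also varied with the length of the fragment. Of those of up to 100 bp, 81.0% vanished, of those of 100 to 200 bp 71.0%, of 200 to 300 bp 57.3%, and of 300 to 500 bp and 500 to 1000 bp 51.2% each. Part of this dependence follows from the construction of the list, since an interval of several fragments vanishes only if every one of them misses the threshold.

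**Figure D4:**
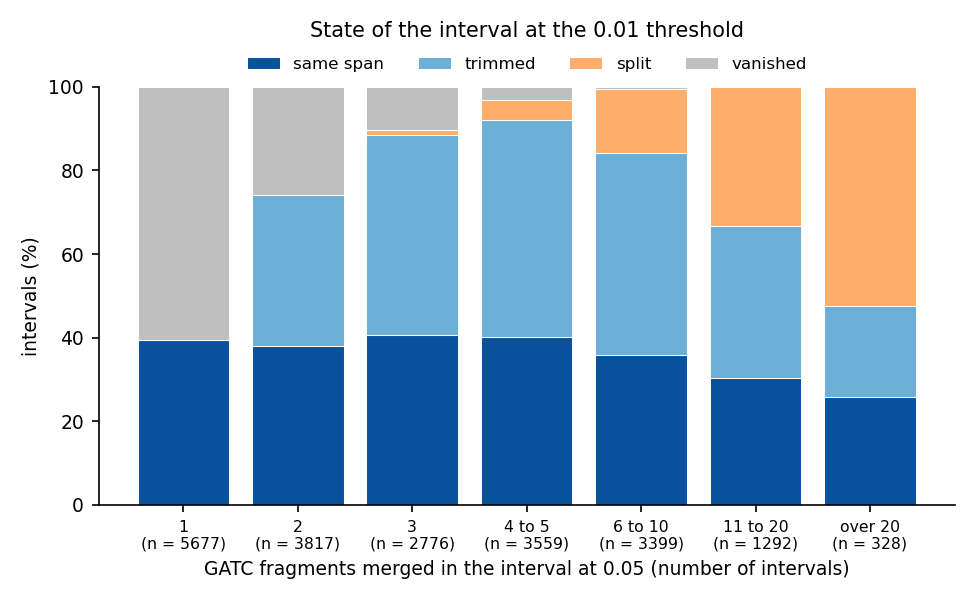
State at the 0.01 threshold of the Dichaete-Dam intervals called at 0.05 (y axis, % of intervals) by the number of GATC fragments merged at 0.05 (x axis, with the number of intervals). Colours stand for the same start and end, trimmed to 1 shorter piece, split into 2 or more pieces, and vanished; the vanished share falls from 60.6% at 1 fragment to 0 above 10, and the split share rises to 52.4% above 20.

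Trimming took off the edges of intervals evenly on both sides. The lower end alone receded in 2784 intervals, the upper end alone in 2804, and both in 1145. The median loss was 236 bp (interquartile range 106 to 471), 28.5% of the width, and 4217 trimmed intervals (62.6%) lost exactly 1 fragment. The largest loss left 1322 of 3772 bp at chr2R:6983994-6987765, a loss of 2450 bp with 4 of 6 fragments kept. At chr2L:21394818-21397348 only 1 of 5 fragments was left, 341 of 2531 bp. A further 245 intervals with the same span had fewer fragments inside, a loss of 300 fragments.

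Splitting was more frequent in intervals of more fragments. No interval of 2 fragments can split, 1.19% of those of 3 did, and the share rose through 15.4% at 6 to 10 fragments and 33.4% at 11 to 20 to 52.4% above 20. Part of this rise follows from the construction of the lists, since a split needs an inner fragment to miss the threshold between others that pass it. The median width of split intervals was 2479 bp. Most fell into 2 pieces (1171), 143 into 3, 18 into 4 and 2 into 5. The latter were chr3L:8994142-9002430, which kept 36 of 42 fragments, and chr3L:18086169-18093761, which kept 14 of 19 and 56.7% of its base pairs. The largest space between pieces had a median of 513 bp, and in 172 intervals it exceeded 1000 bp. In 676 split intervals (50.7%) both outer ends stayed in place, so that only inner fragments were lost.

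Retention also varied with the surroundings. Intervals with the nearest neighbour 1000 to 2000 bp away vanished least often, 20.2%. The share was 29.6% where the neighbour was within 250 bp and 37.9% where it was more than 10000 bp away, and median widths in these classes were 738, 755 and 465 bp. For intervals of 1 fragment the shares were 56.7%, 80.9% (225 of 278) and 62.8%, so the excess beside a close neighbour was larger there and that of isolated intervals smaller. Median widths of these intervals of 1 fragment were 270, 215 and 306 bp, so those beside a close neighbour were also the shortest. The part of width in this excess was not tested. By chromosome, 17.2% of intervals vanished on chromosome 4 and 21.6 to 24.1% on the large arms. Among intervals of 1 fragment the values were 61.3% on chromosome 4 (46 of 75, 49.4 to 72.4%) and 60.6% elsewhere. In the other classes they were 16.9% (8.76 to 28.3%) and 25.9% for 2 fragments, 5.36% (1.12 to 14.9%) and 10.5% for 3, 1.75% (0.04 to 9.39%) and 3.08% for 4 to 5, and 2.70% (0.33 to 9.42%) and 0.39% for 6 to 10, where 2 intervals vanished on chromosome 4. Across windows, 78.4% of intervals held in the 121 windows with most intervals and 74.9% in the 600 with fewest.

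Translated intervals of other species gave a readout of the same positions from other libraries. Over the whole list, 47.8% of intervals were overlapped by at least 1 bp in D. simulans, 64.2% in D. yakuba and 5.32% in D. pseudoobscura. The lists of these species covered 11.04%, 25.7% and 0.99% of the arms, in the same order. The overlapped shares ranked as this coverage did and were not adjusted for it, so they do not rank the species by shared binding. For intervals that held at 0.01 the overlapped shares were 56.0%, 71.4% and 6.69%, and for those that vanished 20.7%, 40.4% and 0.81%. The difference was 35.3 percentage points in D. simulans (34.0 to 36.7) and 31.01 in D. yakuba (29.5 to 32.6). With at least 50% of the interval required to be covered it was 17.4 points in D. simulans and 21.02 in D. yakuba. Long intervals are met more often by any list, and those that held had a median width of 884 bp against 272 bp.

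Within fragment classes the difference had the same direction in D. simulans and D. yakuba, and was smallest for 1 fragment. In D. simulans it was 14.4 points for 2 fragments, 18.4 for 3 and 31.1 (22.4 to 39.7) for 4 to 5. In D. yakuba it was 14.2, 15.1 and 29.0 points (19.5 to 38.4). At 4 to 5 fragments, where 109 intervals vanished, both intervals of counting error included the difference of the whole list. These classes were not matched for width. Median widths of held and vanished intervals were 521 and 363.5 bp for 2 fragments, 712 and 450 bp for 3, and 1008 and 633 bp for 4 to 5. Among intervals of 1 fragment, D. simulans overlapped 27.8% of those that held and 18.0% of those that vanished, a difference of 9.86 points (7.60 to 12.1). D. yakuba overlapped 45.9% and 37.7%, a difference of 8.21 points (5.58 to 10.8). In D. pseudoobscura the shares were 1.07% and 0.61%, and the interval of the difference, -0.04 to 0.96 points, included 0. Limiting intervals of 1 fragment to those of 300 to 500 bp, where median widths were 374 and 373 bp, gave 10.5 points in D. simulans (6.31 to 14.7) and 10.8 in D. yakuba (6.09 to 15.6). For those of 200 to 300 bp the D. simulans difference was 9.47 points (4.79 to 14.2) and the D. yakuba difference 2.50 points (-2.75 to 7.75). For those of 100 to 200 bp both intervals lay above 0, at 9.21 points (3.75 to 14.7) and 9.15 points (2.74 to 15.6). For those of 500 to 1000 bp both included 0, at 4.99 points in D. simulans (-0.70 to 10.7) and 4.72 in D. yakuba (-2.44 to 11.9). For those of up to 100 bp D. simulans gave 6.35 points (-0.61 to 13.3) and D. yakuba 15.2 (6.28 to 24.1). The difference was thus above 0 in each width class, with an interval that excluded 0 in 3 of 5 classes for each species.

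**Figure D5:**
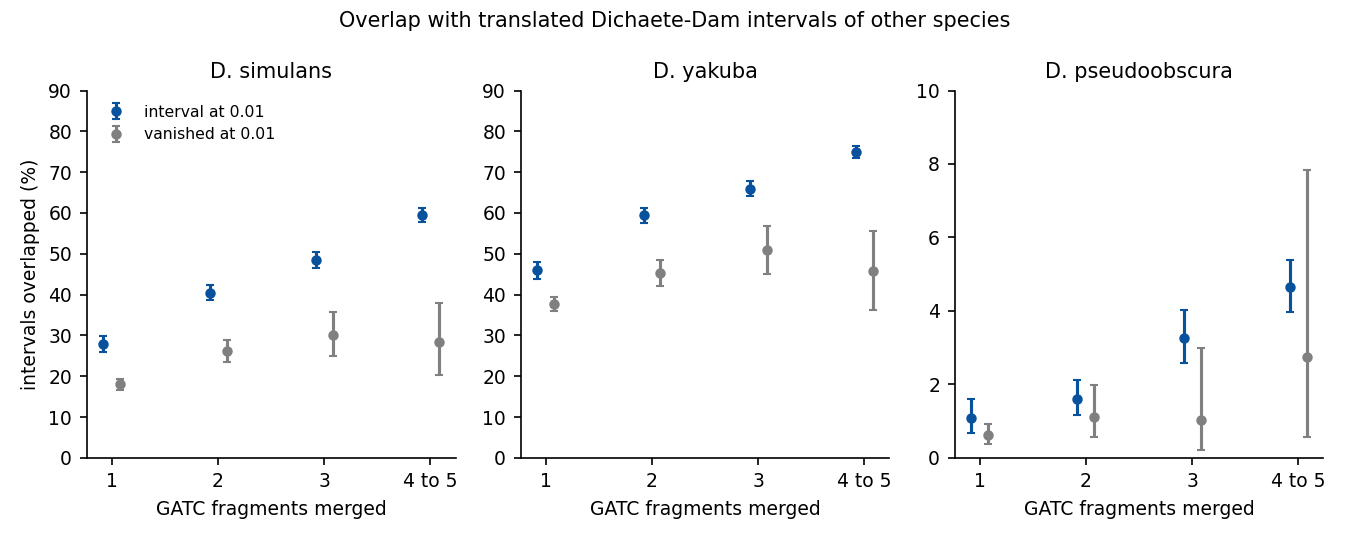
Share of D. melanogaster Dichaete-Dam intervals overlapped by at least 1 bp by a translated Dichaete-Dam interval of D. simulans, D. yakuba or D. pseudoobscura (y axis, %, on its own scale for D. pseudoobscura) by the number of GATC fragments merged (x axis). Blue points are intervals with an interval at 0.01, grey points those that vanished, and bars are exact 95% binomial intervals; blue lies above grey in each class, with bars that overlap in D. pseudoobscura.

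Overlap with other species rose with fragment number. In D. simulans it rose from 21.9% of intervals of 1 fragment through 58.6% at 4 to 5 fragments to 93.6% above 20, and in D. yakuba from 40.9% through 74.0% to 95.1%. D. pseudoobscura, the most distant species and the one with the shortest list, overlapped 0.79% of intervals of 1 fragment. It overlapped 10.0% of those of 6 to 10 and 46.6% of those above 20 (153 of 328). The study relates the small number of D. pseudoobscura intervals to noisier profiles and replicates that were less reproducible. Whether distance or data quality lowered the overlap was not tested. Intervals that split at 0.01, with a median of 10 fragments, were overlapped at 77.6% in D. simulans and 87.8% in D. yakuba, and those with the same span at 54.1% and 68.5%. Widths of these groups differed, and their part in these shares was not tested beyond the classes given above.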

How the data were processed

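DamID-seq libraries of whole D. melanogaster embryos, 3 Dichaete-Dam and 3 Dam-only, were compared by the study, and the lists of intervals that resulted were analysed here. By the study's account, adapters were removed by the authors (cutadapt), reads aligned to dm3 (Bowtie2), lengthened to 200 bp and counted per GATC fragment (bedtools), and DESeq2 compared fusion with Dam-only libraries. Fragments with a positive log2 fold change and an adjusted p-value under 0.05 or 0.01 were merged when within 100 bp. The submitters' processing notes name DESeq2 1.6.1, bedtools 2.21.1, SAMtools 0.1.19 and HOMER 4.7. Reads of the other species had been translated by LiftOver, with a minMatch of 0.7, or 0.5 for D. pseudoobscura. MiSeq reads of 150 bp and HiSeq reads of 50 bp were used, the former paired-end by the labels and single-end by the methods.

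The deposited values used are positions and a whole number per interval, taken as the number of merged fragments from its values since the lists have no header. The authors' lists hold no read counts, so depth per library is not known, and no column of a single sample was used. Of 12 lists, 7 in dm3 positions were used.

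Positions are printed with the first base numbered 1. Arm lengths were taken as the largest end in any list used. Windows of 100 kb were counted from the first base, only full windows were used, and an interval belonged to the window or part of an arm holding its midpoint. An overlap needed 1 bp. An interval held when an interval at 0.01 lay inside it, was trimmed when 1 shorter piece was left, split when 2 or more were left, and otherwise had the same span or vanished. Intervals of differences between shares use the normal approximation. Regions were named by rule: the 10 most covered windows and the most covered of each arm, the 10 longest intervals, the 5 longest gaps, and the 5 foremost vanished, split and trimmed intervals. The windows with most intervals, the chains, the arm ends and the parts of arms were named beyond this rule after their values were seen. Members, rule and results were chosen with earlier results of these data known. Python 3.11.15, NumPy 2.4.6, SciPy 1.17.1, pandas 2.3.3 and Matplotlib 3.10.9 were used, and 10 of 10 checks of the functions on simulated lists came out as planted. Alternatives were the list at 0.01, intervals of at least 500 bp, joined neighbours, other windows, leaving out chromosome 4 and other definitions of an overlap, a split or a loss. Genes, motifs and sequences were not analysed here, since the annotation used for names belongs to another build.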

Additional observations from a re-analysis of the deposited data

How the results depend on the processing

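Of 45 alternatives to 15 results, 15 left the value in place and 30 moved it. Only the differences between held and vanished intervals could change sign, and neither did. The other results cannot be negative, so for them a change of sign was not possible. Counts and the ratio of variance to mean were taken as moved beyond 1.5 times, shares, medians, differences and the chromosome 4 ratio outside their interval of counting error, and the densest window when another window came first. With intervals of at least 500 bp there were 12836 intervals of median width 1108 bp and median gap 3560 bp, 27.5% had a neighbour within 1000 bp and the densest 10% of windows held 18.9% of intervals. Of these intervals 92.9% held at 0.01, as did 49.0% of those of 1 fragment, and the difference between held and vanished was 39.2 points in D. simulans. In the list at 0.01 the median width was 652 bp, the median gap 2667 bp, the share of 1 fragment 29.8%, that with a neighbour within 1000 bp 37.3%, that in the densest 10% of windows 18.5% and the chromosome 4 ratio 1.89. Joining gaps of up to 1000 bp gave a median width of 925 bp and a median gap of 3224.5 bp. A neighbour lay within 500 bp for 14.8% of intervals and within 2000 bp for 68.6%. The densest 10% held 18.5% in windows of 50 kb and 15.4% in windows of 200 kb. The densest window was another one when ranked by the number of intervals (36.7% covered, on 3L) and when windows started at 50 kb (57.7%, on chromosome 4). By covered base pairs the chromosome 4 ratio was 2.16. Required to be covered to 50% at 0.01, 67.9% of intervals held, and 38.1% had the same start and end. Pieces more than 1000 bp apart left 172 split intervals. With an overlap of 50% the differences between held and vanished were 21.02 points in D. yakuba and 17.4 in D. simulans, and for intervals of 1 fragment 8.21 and 9.86. The cause of these shifts was not tested, beyond the smaller sets that stricter settings leave by construction.

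No paired analysis was possible because each list pools the 3 replicates of a group; for the same reason leaving out a replicate was not run. The lists hold no read depth, so a fragment that was not called and one read too thinly cannot be told apart.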

Other observations

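The first of 10 equal parts of chromosome 4, its centromere-proximal end, held 23 Dichaete-Dam intervals with a median width of 2025 bp, the broadest of the 10 parts, and 22 of the 23 held an interval at 0.01. D. simulans had 0 translated intervals in this part, while D. yakuba intervals overlapped 16 of the 23. In the last part of chromosome 4 there were 40 intervals with a median width of 440 bp, of which 11 vanished at 0.01.

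The longest gap, of 152439 bp on 2R, held 9 D. yakuba intervals, 2 D. simulans intervals and 1 D. pseudoobscura interval. The gap of 119434 bp on X held none from D. simulans or D. pseudoobscura and 5 from D. yakuba. Of the 123 gaps of at least 50000 bp, 40 held no D. simulans interval and 13 no D. yakuba interval.

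Intervals that vanished at 0.01 were not all beside retained ones. Of the 4837, 28.1% lay within 1000 bp of an interval that held and 7.17% lay more than 10000 bp from any such interval. Among intervals that held, 29.8% had another that held within 1000 bp and 4.25% had none within 10000 bp.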
